A study of Homo sapiens with 9 samples.

Results

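Olfactory receptor genes were taken from the deposited table as the rows typed protein-coding whose symbol is OR followed by a family number, letters and a member number. They numbered 416 of the 62703 genes listed, and lay on 18 chromosomes, 178 of them on chromosome 11 and 65 on chromosome 1. At each locus the reads in each library were followed, as was the distance to the nearest active gene, which here means a gene with a mean of 10 CPM or more in untreated cells, CPM being counts scaled to the same library total. Of the listed genes, 10664 were active by this rule, and 10565 of them had a strand and were used. A locus was called silent when the untreated libraries together held at most 2 reads, and 405 of the 416 loci were silent.

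Olfactory receptors are G protein-coupled receptors that detect odorants in the nasal epithelium. Their genes stand in clusters that are packed in heterochromatin in most other tissues, and each mature sensory neuron transcribes a single one of them. The receptor acts through the G protein subunit encoded by GNAL, the adenylyl cyclase ADCY3 and cyclic nucleotide-gated channels. In kidney tubule cells most of these loci are normally silent, so that reads at them report transcription from a position where little is otherwise counted.

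The libraries came from HK-2, a papillomavirus-transformed line of human proximal tubule cells with the genotype label WT, in 3 groups of 3. Untreated cells are numbered 1, 2 and 3. Cells numbered 1, 4 and 6 received aristolochic acid, a nephrotoxic plant compound that forms DNA adducts, at 5 µg/ml for 48 h. Cells numbered 1, 3 and 4 received the same aristolochic acid dose and time plus an adenovirus made with the GV314 vector to overexpress MYDGF, a secreted growth factor. A 12 h serum starvation and medium with 5% serum were given for all groups. No source used here says whether the other groups received a control vector, so MYDGF and the vector cannot be told apart. The treatment labels of 4 libraries read HK-3 or HK-4, and these were read as HK-2. The libraries of a group are not said to come from separate cultures, so a p-value here covers the spread between libraries alone, and that spread may be technical.

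Library totals ran from 10876572 to 14254786 counts. MYDGF itself ranged over 123 to 131 CPM (untreated), 74.2 to 105 CPM (aristolochic acid) and 510 to 663 CPM (MYDGF group). Of the 13 epithelial and tubule markers in the table, 10 passed the filter on low counts, with KRT8 at 580 and KRT18 at 372 CPM in untreated cells, while the nephron factors PAX8 and PAX2 stood at 0.456 and 0.344 CPM. Of 12 markers of olfactory sensory neurons, CNGA2 and RTP1 held no read in any library, OMP held 7, 1 and 3 reads in the untreated, aristolochic acid and MYDGF groups, and only GNAL, ADCY3 and ANO2 passed the filter. The summed reads of these 12 genes were 1311 to 1848 per untreated library, 685 to 1358 per aristolochic acid library and 1456 to 1494 per MYDGF library. The 5 sustentacular markers summed to 0 to 6 reads per library. Sums of 5 leukocyte markers were 197 to 279, 208 to 228 and 280 to 338 reads per library in the same order of groups, those of 4 endothelial markers 13 to 15, 81 to 160 and 46 to 54, and those of 4 fibroblast markers 135 to 152, 90 to 176 and 184 to 195. CD3E was at 0 in all libraries, KDR held 2 reads in each group, and PECAM1 held 22, 289 and 85. Single leukocyte markers moved apart within their sum: CD79A held 9, 205 and 62 reads in the 3 groups and was higher with aristolochic acid (log2 fold change 4.51, edgeR adjusted p = 1.75e-05), LCP1 held 182, 266 and 684, and CD68 held 487, 168 and 143. The part of other cells in the results was not tested. In bulk RNA, fewer cells of a type and less RNA per cell cannot be told apart.

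The stretch before the annotated start of the 4 loci with the most reads under aristolochic acid is shown because these loci carry most of the signal described below, and because olfactory receptor promoters are known for binding sites of EBF and LHX2. The sequences are the 250 bases upstream of the start in the RefSeq promoter table (GRCh38.p14), 5′ to 3′ on the gene's strand, and 309 of the 416 loci matched an entry by symbol. They lie at chr19:9178729-9178978 on the plus strand (OR7D2), chr14:21156064-21156313 on the minus strand (OR5AU1), chr9:111330225-111330474 on the minus strand (OR2K2) and chr11:48244854-48245103 on the plus strand (OR4X2). Capitals mark a match to the EBF core, TCCC and GGGA with any 2 bases between them.
OR7D2: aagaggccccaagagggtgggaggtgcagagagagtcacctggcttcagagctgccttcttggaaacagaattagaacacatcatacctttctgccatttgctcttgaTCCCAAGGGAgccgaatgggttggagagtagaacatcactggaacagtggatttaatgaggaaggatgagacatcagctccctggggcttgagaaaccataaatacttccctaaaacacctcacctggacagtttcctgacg
OR5AU1: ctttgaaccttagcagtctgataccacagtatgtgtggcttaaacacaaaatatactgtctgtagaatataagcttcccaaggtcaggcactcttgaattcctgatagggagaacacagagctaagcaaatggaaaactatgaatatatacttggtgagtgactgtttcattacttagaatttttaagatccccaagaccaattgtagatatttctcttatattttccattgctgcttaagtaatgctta
OR2K2: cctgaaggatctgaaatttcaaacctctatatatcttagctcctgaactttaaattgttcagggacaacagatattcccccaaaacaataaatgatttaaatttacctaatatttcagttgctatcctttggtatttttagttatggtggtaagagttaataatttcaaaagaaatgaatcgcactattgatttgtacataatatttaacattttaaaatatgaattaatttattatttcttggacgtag
OR4X2: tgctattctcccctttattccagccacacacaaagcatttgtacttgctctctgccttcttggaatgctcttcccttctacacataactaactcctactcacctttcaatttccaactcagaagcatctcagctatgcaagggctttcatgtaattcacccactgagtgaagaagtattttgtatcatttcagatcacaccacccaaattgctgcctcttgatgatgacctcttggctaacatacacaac

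The match in OR7D2 begins 142 bases before the start, and the other sequences hold none of the 3 motifs searched. Both strands were searched for TATAAA, the EBF core and TAATTA, the last being a core bound by LHX2 and other homeodomain proteins, and matches of different motifs may share bases. TATAAA was found in 33.0% of the 309 olfactory receptor windows and in 11.1% of all 27305 windows of that length, TAATTA in 20.4% and 4.49%, and the EBF core in 0.971% and 1.08%. The windows of the olfactory receptors had a median GC content of 37.2%, against 58.0% over all windows. Of the 13 loci with at least 10 reads under aristolochic acid 11 had a window, of which 1 held TATAAA (OR2A7), 1 the EBF core (OR7D2) and 3 TAATTA (OR2B6, OR2AE1 and OR4D1). A match is only a description of the letters. For OR5AU1 the RefSeq start lies inside the locus as the deposited table gives it. For OR1F1 the window, at chr16:3187954-3188203, lies away from the locus, which begins at 3204247. Whether transcription begins at the annotated starts was not tested.

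In all 9 libraries together, 340 of the 416 loci (81.7%) held no read. Untreated libraries held 39, 26 and 47 olfactory receptor reads, aristolochic acid libraries 250, 599 and 441, and MYDGF libraries 176, 97 and 128. The groups did not overlap: every aristolochic acid library was above every MYDGF library, and every MYDGF library above every untreated one. Loci with at least 1 read numbered 16, 14 and 15 in untreated libraries, 29, 54 and 33 under aristolochic acid and 33, 18 and 26 in the MYDGF group, where the last 2 groups overlapped. Of all listed genes, 25852 to 26012, 28527 to 30637 and 27818 to 28762 per library held a read, in the same order of groups.

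Most of the added reads fell on a pair of loci. OR7D2 and OR5AU1 held 875 of the 1290 reads of the aristolochic acid group (67.8%), 16 of 112 untreated reads (14.3%) and 205 of 401 reads of the MYDGF group (51.1%). The summed level of all 416 loci was 3.09, 2.18 and 3.56 CPM in untreated libraries, 20.2, 46.3 and 40.6 CPM with aristolochic acid and 13.5, 7.57 and 9.05 CPM with MYDGF. Without OR7D2 and OR5AU1 the sums were 1.85 to 2.95, 6.32 to 16.4 and 3.59 to 5.74 CPM, so the aristolochic acid libraries were still the highest. The ratio of the aristolochic acid mean to the untreated mean was 12.1 with the pair and 4.52 without it, and 6.86 with the pair in the deposited FPKM, which divides counts by gene length and library total. A rise was not particular to these loci. The 405 silent loci held 23 reads untreated and 647 with aristolochic acid, and the 4117 other silent protein-coding genes 1123 and 41347. With aristolochic acid 12.8% of the former and 42.3% of the latter held a read.

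**Figure D1:**
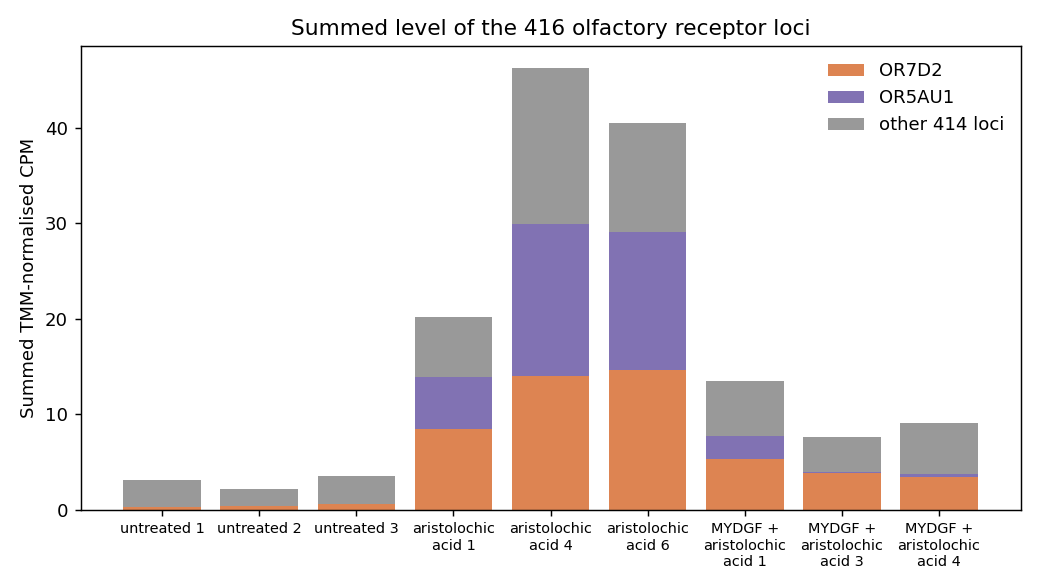
Summed level of the 416 olfactory receptor loci in each library, in TMM-normalised CPM, with OR7D2, OR5AU1 and the other 414 loci stacked. The 3 aristolochic acid libraries reach 20.2 to 46.3 CPM and the 3 untreated libraries 2.18 to 3.56 CPM.

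A silent locus was called gained when a treated group held at least 10 reads over its 3 libraries and each of them stood above each untreated library in CPM. Under aristolochic acid 5 of the 405 silent loci (1.24%) gained reads: OR5AU1, OR4X2, OR2C1, OR2AE1 and OR4D1. The background for this rule was 12.2%, the share of the 4117 other silent protein-coding genes that gained reads, so the olfactory receptors stood below it. With MYDGF only OR5AU1 gained reads, against a background of 6.46%. The silent loci were shorter than the other silent genes, with a median exon length of 1193 against 2470 bp in GENCODE 29, and among the other silent genes under 2000 bp, 134 of 1628 (8.23%) gained reads under aristolochic acid, a comparison added after the data were seen. OR2AE1 with 14 reads and OR4D1 with 10 lay just inside the rule. Just outside it were OR7E24 with 12 reads, none of them in aristolochic acid 1, and OR4F3 with 9.

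OR5AU1 (ENSG00000169327) lies on the minus strand of chromosome 14, at 21148370 to 21159060 in the table's coordinates, which were read as GRCh38. The untreated libraries held none of its reads, the aristolochic acid libraries 67, 205 and 157, and the MYDGF libraries 31, 2 and 4. All 3 aristolochic acid libraries were above all others, and MYDGF 1 held most of the reads of its group. Against a floor of 3 reads over the untreated group, the aristolochic acid level was at least 152-fold higher (edgeR adjusted p = 0.0011). The log2 fold change of MYDGF against aristolochic acid was -3.66 (SE 0.809, n = 3 per group, edgeR adjusted p = 0.0149). This call was lost without MYDGF 4 (adjusted p = 0.0503), and without MYDGF 1 the log2 fold change was -5.69 (adjusted p = 0.00572).

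OR7D2 (ENSG00000188000), on the plus strand of chromosome 19 at 9178979 to 9188818, was not silent in untreated cells, with 4, 4 and 8 reads. It held 105, 182 and 159 reads under aristolochic acid and 70, 49 and 49 in the MYDGF group, and the 3 groups did not overlap. The level was 0.419 ± 0.161 CPM untreated, 12.4 ± 3.38 CPM with aristolochic acid and 4.22 ± 1.01 CPM with MYDGF (SD, n = 3 each). The log2 fold change was 4.84 (SE 0.349, edgeR adjusted p = 9.47e-06) for aristolochic acid against untreated cells. It was -1.55 (SE 0.260, adjusted p = 0.00339) for MYDGF against aristolochic acid.

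OR2K2 (ENSG00000171133), on the minus strand of chromosome 9 at 111327229 to 111330224, held 3, 1 and 1 reads in untreated libraries, 14, 39 and 33 under aristolochic acid and 8, 0 and 9 in the MYDGF group. The aristolochic acid libraries stood above all others, while the MYDGF and untreated libraries overlapped. The log2 fold change was 4.08 (SE 0.825, edgeR adjusted p = 0.00216) for aristolochic acid against untreated cells and -2.47 (SE 0.670, adjusted p = 0.0228) for MYDGF against aristolochic acid. The second call was lost without aristolochic acid 4 (adjusted p = 0.0735) or without aristolochic acid 6 (adjusted p = 0.0726).

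Only these 3 of the 416 loci passed the filter on low counts and entered the edgeR test, and each had passed through the group in which it was high, so their number is no support for a general change. All 3 were called higher with aristolochic acid, in a comparison that called 59.0% of the 18267 genes tested, 29.7% higher and 29.3% lower. All 3 were lower with MYDGF than with aristolochic acid, where 29.4% of the genes tested were called and 14.7% of those tested were lower. Against untreated cells, where 51.1% of the genes tested were called and 26.8% of those tested were higher, the MYDGF group was higher at OR7D2 (log2 fold change 3.29, adjusted p = 0.000109) and at OR5AU1 (adjusted p = 0.0497), and OR2K2 did not pass (log2 fold change 1.60, adjusted p = 0.225). These comparisons share libraries with each other and are given side by side only. The OR5AU1 call against untreated cells was lost when any of the untreated libraries (adjusted p = 0.0877 to 0.0913) or MYDGF 1 (adjusted p = 0.110) was left out. Without a filter on low counts edgeR called 9 loci higher with aristolochic acid, and DESeq2 called 8. Over all genes these settings called 12005 and 11399 in either direction, against 10779 in the main fit.

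OR4X2 (ENSG00000172208; chromosome 11, 48245104 to 48246015, plus strand) held no untreated read, 3, 12 and 13 reads under aristolochic acid and 3, 1 and 0 in the MYDGF group. It was at least 9.89-fold higher with aristolochic acid than the untreated floor of 3 reads. OR2C1 (ENSG00000168158; chromosome 16, 3355889 to 3357306, plus strand) held 0, 0 and 2 reads untreated, 4, 17 and 5 under aristolochic acid and 2, 1 and 2 in the MYDGF group. Its ratio of aristolochic acid to untreated reads, scaled for depth, was 13.8 (95% exact interval 3.45 to 120). The gain rule itself requires the lowest aristolochic acid library to lie above every untreated one. At OR4X2 that library lay close to the highest MYDGF library.

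OR2AE1 (ENSG00000244623; chromosome 7, 99876062 to 99877033, minus strand) held 0, 1 and 0 reads untreated, 5, 3 and 6 under aristolochic acid and 2, 5 and 1 in the MYDGF group. The ratio of aristolochic acid to untreated reads was 14.8 (95% exact interval 2.26 to 627), and the treated groups overlapped. OR4D1 (ENSG00000141194; chromosome 17, 58148384 to 58159585, plus strand) held no untreated read, 2, 6 and 2 reads under aristolochic acid and 2, 1 and 1 in the MYDGF group, and was at least 3.53-fold above the untreated floor. Intervals cover counting error only. A fold against the floor takes the treated reads as exact, so it covers neither their counting error nor the spread between libraries.

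**Figure D2:**
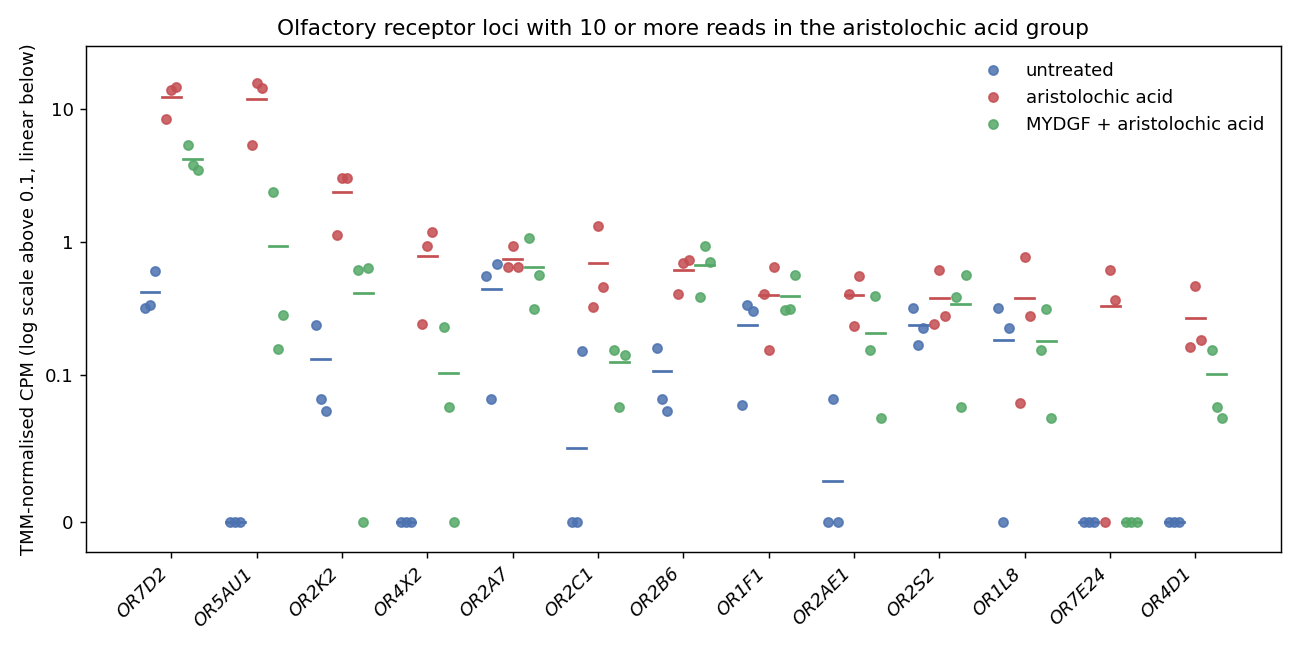
Level of the 13 olfactory receptor loci with 10 or more reads in the aristolochic acid group, in TMM-normalised CPM on an axis that is logarithmic above 0.1 and linear below it. Points are libraries and short lines are means of 3, and OR7D2 and OR5AU1 reach 12.4 and 11.9 CPM on average with aristolochic acid.

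Among all 13 loci with at least 10 reads under aristolochic acid, every aristolochic acid library was above every untreated library at 8, and every MYDGF library was below every aristolochic acid library at 6. These 13 were chosen for their reads under aristolochic acid. Over the 14549 other protein-coding genes with at least 10 such reads the shares were 32.5% and 22.7%, and no test sets the loci against them. The lowest of the aristolochic acid libraries was library 1 at 10 of the 13 loci. Of the loci not yet described, OR7E24 held no untreated read and the others did. OR2A7, the locus with the most untreated reads, held 17, 27 and 26 reads in the untreated, aristolochic acid and MYDGF groups, and has near-identical copies in its cluster, so its reads may be split between copies. OR1F1 held 9, 14 and 16 reads, OR2S2 9, 14 and 14, OR1L8 7, 14 and 7, and OR2B6 4, 22 and 27. The intervals of the aristolochic acid to untreated ratio reached from below 1 for OR2A7 (0.885 to 3.29), OR1F1 and OR2S2 (both 0.665 to 4.32) and OR1L8 (0.800 to 6.20). For OR2B6 the ratio was 5.83 (1.98 to 23.3), and the MYDGF libraries overlapped the aristolochic acid ones.

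The position of each locus was then set against the active genes around it. The distance used is that from the 3′ end of the nearest active gene on the same strand to the locus downstream of it, called the facing distance here. Counts per gene do not tell where a transcript began. The silent olfactory receptors lay far from such ends, with 20 of 405 (4.94%) within 100 kb, against 21.9% of the other silent genes, and their median facing distance was 562 kb, against 361 kb. None lay within 10 kb.

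Of the 5 gained loci, 4 lay within 100 kb past a facing gene. Between 10 and 50 kb, 3 of 7 silent loci gained reads under aristolochic acid (42.9%), beside 171 of 391 other silent genes (43.7%). Between 50 and 100 kb it was 1 of 13 (7.69%) beside 80 of 361 (22.2%), and between 100 and 250 kb 1 of 70 (1.43%) beside 81 of 776 (10.4%). None of the 166 silent loci between 250 and 1000 kb gained reads, nor any of the 124 beyond 1000 kb or of the 25 with no facing gene on their chromosome. Of the other silent genes, 51 of 1426 (3.58%) and 14 of 981 (1.43%) gained reads in the first 2 of these classes. Among the shorter of them, under 2000 bp of exon, 50 of 174 (28.7%) gained reads at 10 to 50 kb, 19 of 159 (11.9%) at 50 to 100 kb and 13 of 320 (4.06%) at 100 to 250 kb. Each olfactory receptor class within 100 kb holds few loci, and the differences between the sets were not tested.

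**Figure D3:**
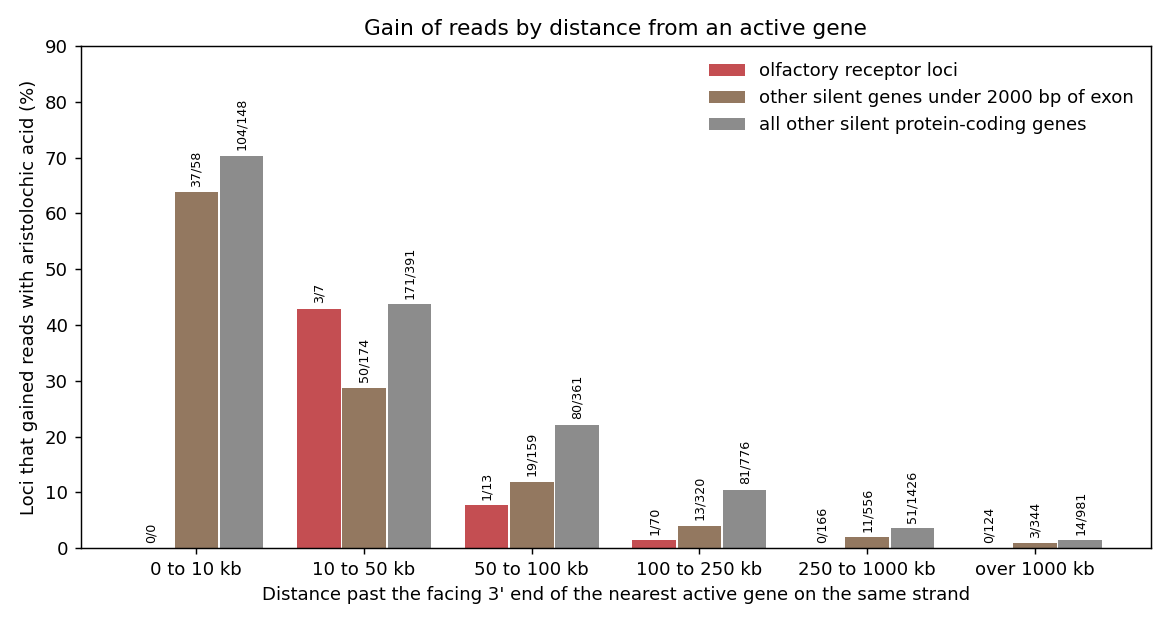
Share of silent loci that gained reads with aristolochic acid, by facing distance, for olfactory receptors, other silent protein-coding genes under 2000 bp of exon and all other silent protein-coding genes, with gained over total printed on the bars. The share is 42.9% for olfactory receptors at 10 to 50 kb and 0 beyond 250 kb.

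The same order was seen in a looser count. At least 1 read under aristolochic acid was found at 14 of the 20 silent loci within 100 kb of a facing gene (70.0%) and at 38 of the 385 others (9.87%). For the other silent genes these shares were 79.0% and 32.0%, and for those under 2000 bp of exon 70.3% and 23.7%. The 315 silent loci at 250 kb or more, or with no facing gene, held 11, 41 and 24 reads in the untreated, aristolochic acid and MYDGF groups. The 20 loci within 100 kb held 5, 537 and 62, of which OR5AU1 alone held 0, 429 and 37.

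Orientation was compared among silent loci whose nearest active gene lay within 100 kb. Where that gene pointed its 3′ end at the locus on the same strand, 8 of 11 loci held a read under aristolochic acid (72.7%). Where it pointed its 3′ end at the locus from the opposite strand, 11 of 29 did (37.9%), and both gained loci of this class, OR2C1 and OR4D1, also had a facing gene on their own strand within 50 kb. Where its 5′ end was the nearer one, 2 of 20 on the same strand (10%) and 2 of 25 on the opposite strand (8%) held a read, and none gained. For the other silent genes the shares in these 4 positions were 81.1%, 46.1%, 49.1% and 44.7%.

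**Figure D4:**
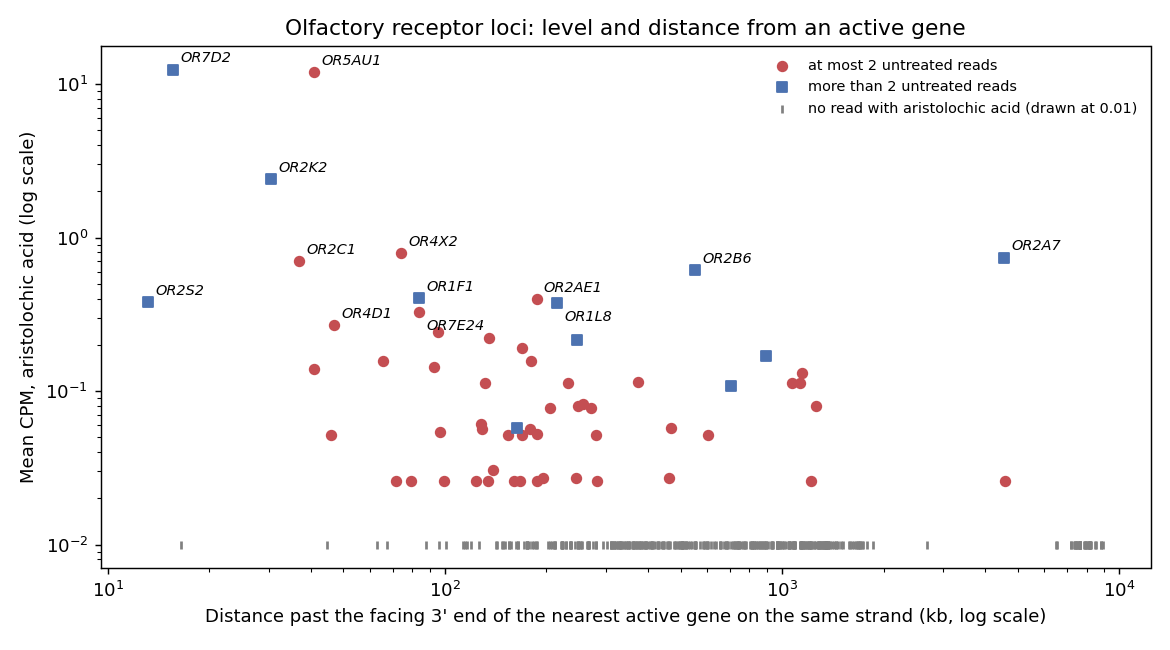
Mean level of each olfactory receptor locus with aristolochic acid, in CPM on a log axis, against its facing distance in kb on a log axis. The 25 loci with no facing gene on their chromosome are left out, loci without a read are drawn at 0.01, and the 2 highest, OR7D2 and OR5AU1, lie 15.6 and 41.0 kb past an active gene.

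OR7D2 began 15.6 kb past the 3′ end of ZNF317, a zinc finger gene on the same strand. ZNF317 stood at 2.63 ± 0.257 FPKM untreated, 4.02 ± 0.190 with aristolochic acid and 3.63 ± 0.329 with MYDGF, and OR7D2 at means of 0.0435, 1.31 and 0.442 FPKM. ZNF317 rose with aristolochic acid by 0.59 on the log2 scale (SE 0.097, edgeR adjusted p = 0.000661), where OR7D2 rose by 4.84. Further along the same strand OR7E16P, OR7E25P and OR7D1P, which are olfactory receptor pseudogenes, held 9, 2 and 3 reads with aristolochic acid and none untreated. At 83.9 kb OR7E24 held 0, 8 and 4 reads in aristolochic acid libraries 1, 4 and 6, and none in the untreated or MYDGF libraries. OR7D4, which lies between OR7D2 and OR7E24 on the opposite strand, held 1 read.

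OR5AU1 began 41.0 kb past LINC00641, a long noncoding RNA, and 50.1 kb past HNRNPC, which encodes an RNA-binding protein of the nucleus, both on its strand. LINC00641 stood at 5.92 ± 1.17, 25.95 ± 5.62 and 16.4 ± 2.48 FPKM in the 3 groups in the order above, and OR5AU1 at means of 0, 1.10 and 0.0865 FPKM. LINC00641 rose by 2.11 on the log2 scale with aristolochic acid (SE 0.202, adjusted p = 3.33e-05) and HNRNPC by 0.46 (adjusted p = 0.00684). LINC00641 was lower with MYDGF than with aristolochic acid alone, by a log2 fold change of -0.65 (adjusted p = 0.0325). Between LINC00641 and OR5AU1, the same-strand gene ENSG00000258906 held 0, 18 and 4 reads in the 3 groups, and the opposite-strand pseudogene SMARCE1P3 held 12, 6 and 16.

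OR4X2 stood in a run of 5 olfactory receptors past PTPRJ, a receptor tyrosine phosphatase gene, all on its strand. OR4B1 at 46.0 kb held 2 reads with aristolochic acid, OR4X2 at 74.3 kb 28, OR4X1 at 93.0 kb 5, OR4S1 at 135.4 kb 8 and OR4C3 at 154.1 kb 2, and none of the 5 held an untreated read. The pseudogene OR4B2P, at 56.6 kb, held 0, 14 and 1 reads in the 3 groups. The reads did not decline steadily with distance: the mean levels with aristolochic acid were 0.0558, 0.868, 0.157, 0.240 and 0.0501 FPKM in that order of the receptors. PTPRJ itself stood at 14.8 ± 1.06 FPKM untreated and 13.4 ± 1.02 with aristolochic acid, a change that did not pass the test (log2 fold change -0.17, adjusted p = 0.0883).

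**Figure D5:**
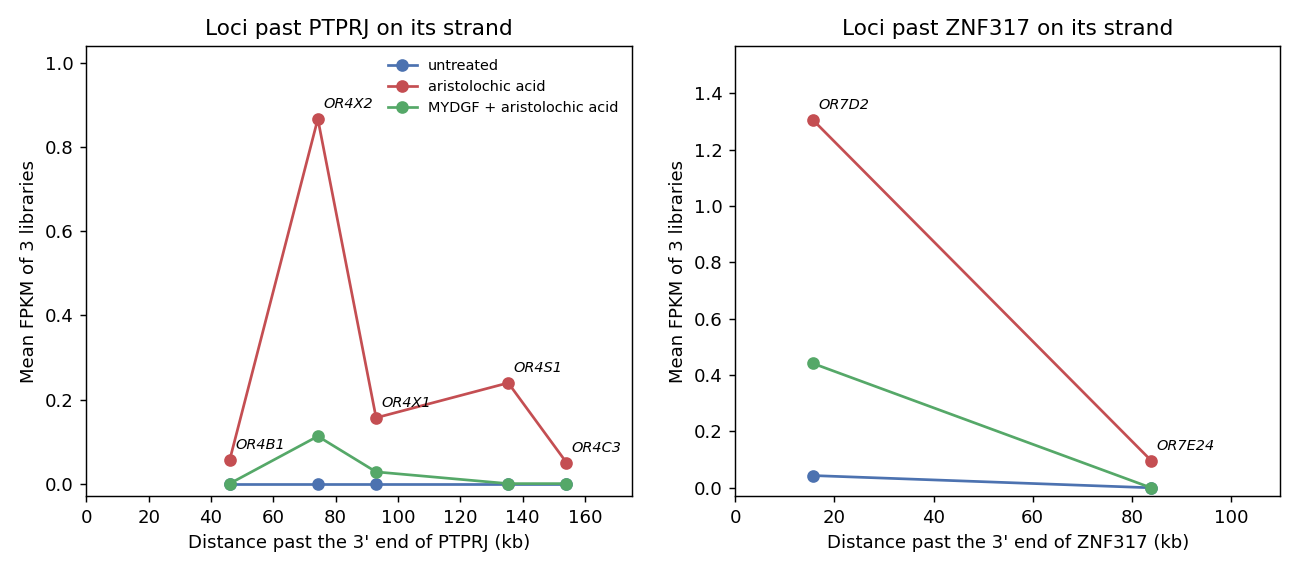
Mean FPKM of 3 libraries for the olfactory receptor loci downstream of PTPRJ and of ZNF317 on the strand of that gene, against the distance from its 3′ end in kb. OR4X2 at 74.3 kb is the highest past PTPRJ at 0.868 FPKM with aristolochic acid, and points at 0 lie on top of each other.

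OR2K2 began 30.5 kb past ECPAS, a proteasome adaptor gene. ECPAS stood at 14.9 ± 0.251 FPKM untreated, 16.8 ± 0.111 with aristolochic acid and 17.7 ± 0.488 with MYDGF, where OR2K2 stood at means of 0.0545, 0.997 and 0.172. ECPAS was called higher with aristolochic acid by 0.16 on the log2 scale (adjusted p = 0.0213) and did not differ past the threshold between MYDGF and aristolochic acid (log2 fold change 0.08, adjusted p = 0.25). OR2C1 began 37.0 kb past ZNF75A, a zinc finger gene that rose by 0.80 (adjusted p = 0.00614). OR4D1 and OR4D2 lay 46.9 and 65.5 kb past ENSG00000279207, which did not pass the test (log2 fold change 0.28, adjusted p = 0.0838), and OR4D2 held 2, 4 and 0 reads with aristolochic acid and none elsewhere.

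OR2AE1 was the gained locus outside this pattern of distances, 187 kb past its facing gene ZNF3. The facing distance leaves out any gene that overlaps the locus. OR2AE1 overlaps TRIM4, an active gene on the same strand, and the extent of the overlap was not measured. The level of TRIM4 was 6.40 ± 0.464 FPKM untreated, 6.76 ± 0.533 with aristolochic acid and 4.13 ± 0.242 with MYDGF. Of the 5 loci that overlapped an active gene on their own strand, OR2AE1 alone held reads. The other 4, OR52E6, OR52E8, OR52N1 and OR52N5, overlap TRIM5. The 10 loci that overlapped an active gene only on the opposite strand held 2, 4 and 2 reads in the 3 groups.

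A facing gene nearby did not always come with reads. Of the 24 olfactory receptors within 100 kb of one, silent or not, 18 held a read with aristolochic acid and 5 held none in any library. OR52B4 lay 16.5 kb past TRIM21, which fell with aristolochic acid by 0.38 on the log2 scale (edgeR adjusted p = 0.0116), and OR2Y1 lay 44.7 kb past MGAT1, which fell by 0.80 (adjusted p = 6.73e-05). Both genes were active throughout, at 6.52 ± 0.689 and 3.53 ± 0.212 FPKM with aristolochic acid. OR2V1, OR10V1 and OR8B12, at 62.8 to 87.8 kb, were the others at 0. The genes they faced moved in both directions, since TRIM7 before OR2V1 rose by 0.36 (adjusted p = 0.0357), FABP5P7 before OR10V1 rose by 0.44 (adjusted p = 0.00451) and SIAE before OR8B12 fell by 0.74 (adjusted p = 0.0027). OR2S2 lay closest to a facing active gene, 13.2 kb past the processed pseudogene YBX1P10. It held 9, 14 and 14 reads in the 3 groups. YBX1P10 stood at 10.6 CPM untreated, just above the activity limit. At a limit of 20 CPM, or with protein-coding active genes only, OR2S2 faced GNE at 256.3 kb instead.

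By chromosome, the 178 loci on chromosome 11 held 20, 76 and 26 reads in the 3 groups. The 20 loci on chromosome 19 held 17, 467 and 176, of which OR7D2 alone held 16, 446 and 168. The 27 on chromosome 14 held 2, 437 and 39, of which OR5AU1 alone held 0, 429 and 37. On chromosome 17, 9 of 14 loci held a read with aristolochic acid and none held an untreated read. The 57 receptors of class I, families 51 to 56, which resemble those of fish, held 4, 7 and 10 reads, and 3 of them (5.26%) had a read with aristolochic acid, against 60 of 359 (16.7%) of the other families. The class I loci within 100 kb of a facing gene numbered 2 of 57, OR52B4 and OR52B2, beside 22 of 359 in the other families. The difference between the classes was not tested. OR52B2, 41.0 kb past FHIP1B, held 0, 5 and 2 reads in the 3 groups.

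The genes through which olfactory receptors are made and signal were counted as a list. Of 38 such genes 22 passed the filter and were tested. With aristolochic acid 1 of these was higher and 12 were lower, where 29.7% of all genes tested were higher and 29.3% lower, with a median log2 fold change of -0.35, against -0.01 over all genes tested. ADCY3, the adenylyl cyclase of olfactory cilia, fell from 84.8 ± 12.0 to 42.8 ± 7.77 CPM (log2 fold change -0.99, edgeR adjusted p = 0.000401). RTP4, a receptor transporting protein that is also an interferon-induced gene, fell from 1.21 ± 0.249 to 0.105 ± 0.0910 CPM (adjusted p = 0.00140). KDM1A, a histone demethylase used in olfactory receptor choice, fell by 0.54 on the log2 scale, and LDB1, a cofactor of LHX2, fell by 0.67. The member that rose was ATF5, a stress-responsive transcription factor of olfactory neurons, from 10.8 ± 0.343 to 17.5 ± 2.65 CPM (adjusted p = 0.000919). The olfactory channel gene CNGA2 and the receptor transporter RTP1 held no read, both among the 16 genes of the list that were not tested. Some of these held reads mainly under aristolochic acid. RTP2 held 0, 19 and 6 in the untreated, aristolochic acid and MYDGF groups, SLC24A4 0, 32 and 13, and STOML3 1, 14 and 2. PDE1C held 0, 8 and 0, and GNG8 0, 7 and 2. The rest did not: CNGA4 held 18, 9 and 6, OMP 7, 1 and 3, GFY 18, 14 and 21, and EMX2 3, 0 and 2. CNGB1 held 3, 9 and 14, EBF2 9, 4 and 24, and GNG13 0, 0 and 3, while EBF3 and NCAM2 held no read. The untested genes were named here after their values were seen. Without the filter on low counts edgeR called 5 genes of the list higher, where it called 12005 of all genes in either direction.

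With MYDGF, 8 of the 22 were higher and 0 lower than with aristolochic acid alone, where 14.7% of all genes tested were higher and 14.7% lower, with a median log2 fold change of 0.30, against 0.01 over all genes tested. At an unadjusted p under 0.05 edgeR gave 1 lower, and DESeq2 gave 0 adjusted and 3 unadjusted. LHX2, a homeodomain factor of olfactory neurons and of other tissues, stood at 21.8 ± 0.771 CPM untreated, 13.2 ± 1.002 with aristolochic acid and 48.3 ± 2.95 with MYDGF. Its log2 fold change for MYDGF against aristolochic acid was 1.87 (edgeR adjusted p = 2.74e-05). ADCY3 was higher by 0.87 (adjusted p = 0.00358) and ARRB2, a beta-arrestin, by 1.03 (adjusted p = 0.000446), while OR7D2, OR5AU1 and OR2K2 were lower in the same comparison.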

How the data were processed

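Whole-number counts per gene and FPKM values were deposited by the authors in 1 table, not normalized for the counts, per the file headers. The deposited FPKM fits a single length per gene in all libraries. The submitters' processing notes name SAMtools 1.3.1, HISAT2, edgeR and CASAVA 1.8, and the mouse build mm10. The IDs are human and their positions overlap those of GENCODE 29 on GRCh38. No source used here gives the counting tool, the strand setting or the handling of multiply mapped reads, so reads of overlapping, antisense or near-identical genes cannot be told apart.

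Counts were tested in R 4.3.3 with edgeR 4.0.16 (TMM, filterByExpr with minimum count 10 and minimum total 15, quasi-likelihood test on 1 factor of 3 groups, 9 libraries, 6 residual degrees of freedom). P-values were Benjamini-Hochberg adjusted over 18267 genes, with a threshold of 0.05. The test was checked on simulated data. CPM are TMM-scaled and given as mean ± SD. Gained loci, summed levels and shares by distance are counts with no test, using gene strands and exon lengths from GENCODE 29. Intervals of read ratios are exact 95% intervals from binomial counts, and a group without reads was set to a floor of 3 reads over the group. DESeq2 1.42.0 was an alternative. Figures used matplotlib 3.10.9.

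Named loci are those that gained reads, those with 10 or more untreated reads, those nearest the limits of the gain rule and those called by edgeR, with the active genes beside them and the genes between. Loci added to this after their values were seen are OR2B6, OR1F1, OR2S2, OR1L8, OR4D2, the runs past PTPRJ and ZNF317 and the loci without reads near active genes. The members and lists were chosen with earlier results of these data known. Replicate numbers are shared by only some libraries, and same-numbered libraries did not deviate together (correlations -0.165 to 0.018), so they were not taken as pairs. No 2 libraries of a group agreed within sampling noise.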

Additional observations from a re-analysis of the deposited data

How the results depend on the processing

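OR7D2 kept its direction and its call with aristolochic acid in all alternatives run. Leaving out 1 library gave log2 fold changes of 4.66 to 5.21 for OR7D2, 9.97 to 10.59 for OR5AU1 and 3.80 to 4.73 for OR2K2. No value reversed. Loci called higher with aristolochic acid numbered 3, and 9 without a filter on low counts, 8 with DESeq2 and 3 to 4 with 1 library left out. In the same order, 10779, 12005, 11399 and 9936 to 11347 of all genes were called in either direction. Loci called lower with MYDGF than with aristolochic acid numbered 2 to 4 with 1 library left out, and loci called higher with MYDGF than untreated 1 to 3, and 1 when only the 6 libraries compared were fitted. Genes called over the table with MYDGF against aristolochic acid, 5379, ranged from 3504 (without MYDGF 3) to 6614. The cause was not tested.

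A replicate block, which left 2 residual degrees of freedom and rests on numbers that do not pair the samples, gave 5062 calls for aristolochic acid against untreated cells (10779 without it), 14 for MYDGF against aristolochic acid and 5446 for MYDGF against untreated cells (9329 without it). With the block, 1, 0 and 1 olfactory receptor loci were called in these comparisons, and the pathway list gave 0 higher in the first, 1 higher in the second, and 2 higher and 2 lower in the third.

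The 5 loci that gained reads with aristolochic acid became 3 with a minimum of 20 reads, 3 with 0 untreated reads required, and 3 to 7 with 1 library left out, the lowest without aristolochic acid 4 or 6. The 1 locus with MYDGF became 2 with a minimum of 5 reads and 0 to 2 with 1 library left out, 0 being without MYDGF 1. The share of other silent genes that gained reads, 12.2%, became 8.23% under 2000 bp of exon. Loci within 100 kb of a facing gene were 4 of the gained ones at an activity limit of 5 or 20 CPM and with protein-coding active genes only. Loci detected per library, 15, 38.7 and 25.7 on average in the 3 groups, became 9.67, 26.7 and 14.7 at 2 reads or more and 1.33, 10 and 5 at 5 reads or more.

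The ratio of summed levels, aristolochic acid to untreated, was 12.1, 6.86 in deposited FPKM and 4.52 without OR7D2 and OR5AU1. The ratio of MYDGF to untreated was 3.41, 2.31 without the locus with the highest count and 1.93 without the pair. Of the pathway list, with aristolochic acid 1 was higher, 3 with DESeq2, 5 without the filter, 2 with only the 6 libraries compared and 1 to 2 with 1 library left out. With MYDGF against aristolochic acid, 0 to 2 were lower with 1 library left out. With MYDGF against untreated cells 5 were higher, 3 without the filter and 3 to 5 with 1 library left out, and 6 were lower, 3 to 8 with 1 library left out. Most loci hold too few reads at 10876572 to 14254786 counts per library for a test, so loci without reads are not shown to be without transcription.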

Other observations

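Other families that are usually silent in tubule cells were counted by the same gain rule. The background with aristolochic acid was 12.2% of the 4117 other silent protein-coding genes, and differences from it were not tested. Of 435 silent olfactory receptor pseudogenes, 10 gained reads with aristolochic acid (2.30%), and the family held 204, 593 and 361 reads in the untreated, aristolochic acid and MYDGF groups. OR7E47P, 29.8 kb past the autophagy gene ATG101, held 2, 45 and 15 reads, and OR7E105P, 26.3 kb past FRMD6, held 0, 26 and 1. OR7E19P and OR7H1P lay 24.9 and 11.8 kb past ZNF699, a zinc finger gene that rose by 2.63 on the log2 scale (edgeR adjusted p = 4.16e-06), and held 0, 29 and 3 and 0, 14 and 4 reads. OR2W6P held 0, 22 and 16 reads and lay 533.6 kb past its facing gene, beyond the distance of any gained olfactory receptor.

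Of 14 silent bitter taste receptor genes 3 gained reads (21.4%): TAS2R13, TAS2R3 and TAS2R50, with 22, 21 and 21 reads under aristolochic acid. TAS2R3 overlaps SSBP1 on the same strand, and the others had no facing gene within 1000 kb. Of 93 silent keratin-associated protein genes 2 gained reads (2.15%). They were KRTAP12-1 (0, 33 and 10 reads, 86.4 kb past UBE2G2) and KRTAP5-8 (2, 24 and 5 reads, 13.9 kb past NADSYN1). None of 38 beta-defensin and 9 trace amine or vomeronasal receptor genes that were silent gained reads.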
